A study of Gallus gallus with 12 samples.

Results

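Retinoic acid is made, sensed, carried and removed by a small set of genes, and 10 of them were followed here in the hearts of chicken embryos: the synthesis enzymes ALDH1A1, ALDH1A2 and ALDH1A3, the nuclear receptors RARA, RARB, RXRA and RXRG, the binding and transport proteins CRABP1 and RBP4, and the degrading enzyme CYP26A1. They were picked by name, with earlier results of these data known. All probe sets that the platform annotation gives to their symbols were read: 17 probe sets of the 38439 that are not controls, for 10 of the 13009 genes named on the array. A probe set is a group of short oligonucleotides that gives 1 signal and need not be specific to 1 transcript. Of these 17 probe sets, 11 had a mean log2 signal in the upper 60 percent of the array and were tested; they belong to 7 genes, and the probe sets of CRABP1, CYP26A1 and RBP4 were too dim for a test.

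RNA came from hearts of Tibetan Chicken, Shouguang Chicken and Dwarf Recessive White Chicken embryos, and fertilized eggs of full sibs were incubated in hypoxia or in normoxia. Tibetan Chicken is a highland breed, and the other 2 breeds were compared with it under the same conditions. Each of the 6 combinations of breed and condition was hybridized to 2 Affymetrix arrays, which gave 12 arrays, 4 for each breed and 6 for each condition. No transgene or drug is named. The sources used here give neither the oxygen level nor the day of sampling, and neither embryo sex nor how many hearts went into 1 array. Nothing states that the arrays of a group came from separate embryos, so each p-value measures the spread between arrays, part of which may be technical.

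Retinoic acid is formed when a retinaldehyde dehydrogenase of the ALDH1A family oxidizes retinaldehyde, and it acts in the nucleus, where a retinoic acid receptor (RAR) pairs with a retinoid X receptor (RXR) on the DNA of target genes. CRABP1 binds retinoic acid in the cytoplasm, RBP4 carries its precursor retinol in the blood, and CYP26A1 oxidizes retinoic acid for removal. In the vertebrate heart the pathway is known for setting the inflow and atrial end of the early heart tube, and later for signals from the epicardium, the outer layer of the heart where ALDH1A2 is made, that support growth of the heart wall.

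The arrays had been scaled by the authors to one mean signal, and their median signals ranged from 134 to 155. All 13 cardiomyocyte markers on the array had a mean log2 signal above the filter limit of 6.31, and they summed to between 388860 and 448610 signal units on each array. Of 9 epicardial markers 7 had a mean above the limit, PODXL, TCF21 and SEMA3D on every array, while BNC1 was under it on all 12. Of 7 lung and gut epithelium markers 3 were above it by their mean, KRT7 and CDX2 on every array, while NKX2-1 and CLDN3 were under it on all 12. These are bulk samples, so fewer cells of one type and less RNA per cell cannot be told apart.

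The mean log2 signals of the 7 tested genes lay above the limit of 6.31, a signal of 79.5, which is the filter used here and not a detection limit. The brightest probe sets of ALDH1A2, ALDH1A3 and RARB were above it on every array, while ALDH1A1, RARA, RXRG and one RXRA probe set came near it or below it on some arrays. Levels are given in signal units and those of the members were compared only within a probe set, because probe sets differ in how they bind.

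**Figure D1:**
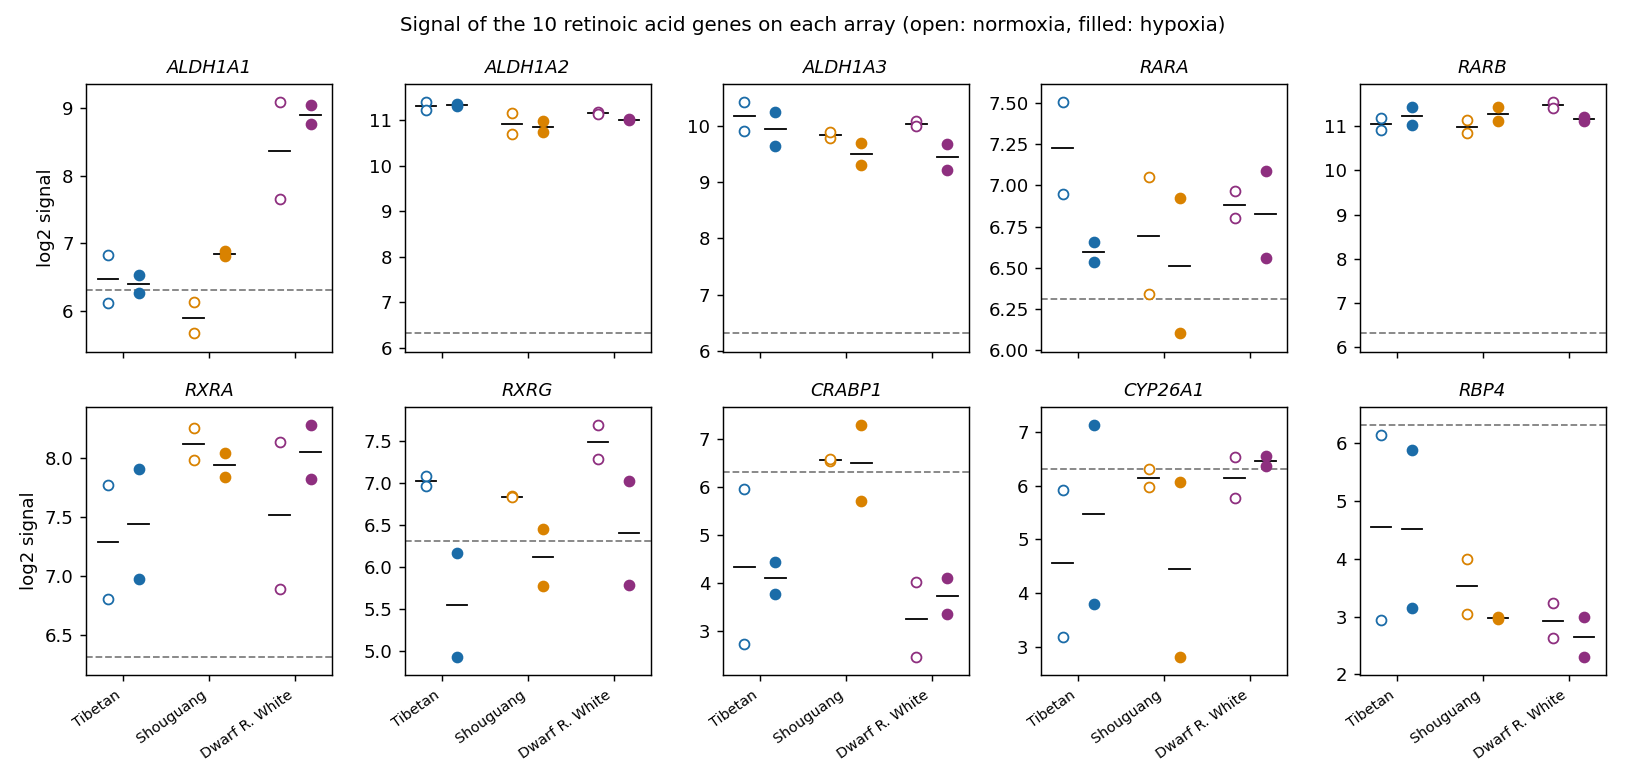
Log2 signal of the brightest probe set of each of the 10 genes on the 12 arrays, by breed (horizontal axis); open points are normoxia, filled points hypoxia, short bars the mean of the 2 arrays and the dashed line the filter limit of 6.31. Each panel has its own vertical axis. All 4 Dwarf Recessive White arrays stand above the other 8 for ALDH1A1, and CRABP1, CYP26A1 and RBP4 lie mostly under the line.

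ALDH1A1 was the only member that passed the test between breeds: it was 4 to 5 times brighter in Dwarf Recessive White hearts than in the other 2 breeds. ALDH1A1 is a cytosolic retinaldehyde dehydrogenase whose gene lies on the Z chromosome, and it was read by 1 probe set. In Dwarf Recessive White the signal was 434 and 527 in hypoxia and 545 and 202 in normoxia. In Shouguang it was 118 and 112 in hypoxia and 69.8 and 50.7 in normoxia, and in Tibetan 92.1 and 76.9 in hypoxia and 113 and 68.9 in normoxia. The lowest Dwarf Recessive White array was therefore brighter than the brightest of the other 8, and the Tibetan and Shouguang arrays overlapped. How many of all probe sets set 1 breed apart in this way is not given, so the separation is only a description.

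Averaged over the conditions, ALDH1A1 was lower in Tibetan than in Dwarf Recessive White by a log2 difference of -2.21 ± 0.33 (standard error, SE), a 4.61-fold difference with a 95% interval of -2.92 to -1.49 (limma, Benjamini-Hochberg adjusted over 23063 probe sets, adjusted p = 0.00970). Shouguang was lower than Dwarf Recessive White by -2.27 ± 0.33, a 4.81-fold difference (limma, adjusted p = 0.00559). These comparisons share the Dwarf Recessive White arrays. The members were chosen with earlier results of these data known, so these p-values may not be independent of that choice. Tibetan and Shouguang differed by 0.06 ± 0.33 (limma, adjusted p = 0.962). Among all tested probe sets, 0.759% passed the threshold of 0.05 in Tibetan against Dwarf Recessive White, 1.33% in Shouguang against Dwarf Recessive White and 0.551% in Tibetan against Shouguang; of the 11 member probe sets the counts were 1, 1 and 0. At an unadjusted p under 0.05 the counts were 2, 2 and 4 of 11, beside 2827, 2702 and 2820 of 23063.

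On 2 Tibetan and 2 Shouguang arrays ALDH1A1 lay under the filter limit. With dim signals raised to that limit the differences were -2.14 and -2.06. The call against Tibetan was lost without the second Dwarf Recessive White hypoxia array (-2.14, limma, adjusted p = 0.0563) and without an intensity trend in the variance (adjusted p = 0.0608). The call against Shouguang held when each of the 12 arrays was left out in turn, with adjusted p from 0.00285 to 0.0300.

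Because ALDH1A1 is on Z, the sex chromosome signal of the arrays was set beside it. Hens carry 1 Z and 1 W, and cocks 2 Z. Averaged over 14 genes of the W chromosome, the log2 signal was 9.49 and 8.15 on the Dwarf Recessive White hypoxia arrays and 6.01 and 8.42 on the normoxia arrays. It ranged from 8.09 to 9.43 in Shouguang and from 9.23 to 9.60 in Tibetan, so arrays differed in W-linked signal and 3 of the 4 Dwarf Recessive White arrays were below every Tibetan array. Within Dwarf Recessive White, the arrays with the lowest W-linked levels, 6.01 and 8.15, had the highest ALDH1A1 signals. The array with the highest W-linked level, 9.49, had an ALDH1A1 signal of 434, and the 1 with 8.42 had 202.

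When this W-linked signal was added to the limma fit as a covariate, the Tibetan difference was -1.54 ± 0.40 (adjusted p = 0.375) and no longer passed, while the Shouguang difference was -1.95 ± 0.31 (adjusted p = 0.0180). Most Dwarf Recessive White arrays had a lower W-linked signal than the Tibetan arrays, so this fit cannot fully separate that signal from breed. The Tibetan calls of RETSAT and BCO1, described below, were lost in it too. The number of all probe sets that pass in this fit is not given, so a lost call is not a result about these genes alone. Among 476 Z-linked genes, 1.26% passed in Tibetan against Dwarf Recessive White and 2.1% in Shouguang against Dwarf Recessive White, beside 0.759% and 1.33% of all tested probe sets. Their median differences were -0.12 and -0.02. Each Z-linked gene was read by its brightest probe set. The shares of all tested probe sets also cover unnamed probe sets and several probe sets of 1 gene, so the sets are unlike. The mean log2 signal of Z-linked minus autosomal genes was -0.35 and -0.08 on the Dwarf Recessive White hypoxia arrays and -0.03 and -0.06 on the normoxia arrays. It ran from -0.36 to -0.03 in Shouguang and from -0.32 to -0.20 in Tibetan. The part of embryo sex in the ALDH1A1 difference was not tested.

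**Figure D2:**
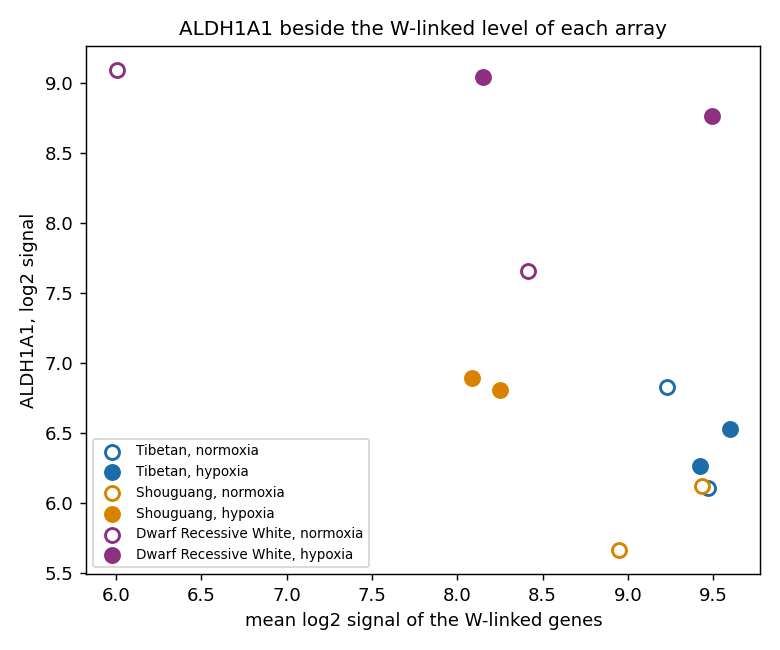
ALDH1A1 log2 signal (vertical) against the log2 signal averaged over 14 W-chromosome genes (horizontal) for the 12 arrays; colour marks the breed and filling the condition. On the horizontal axis 3 of the 4 Dwarf Recessive White arrays lie left of every Tibetan array, and the 1 at 9.49 lies among the Tibetan arrays. On the vertical axis all 4 Dwarf Recessive White arrays lie above the 8 arrays of the other breeds.

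A neural transcript moved with the same breed. TH, tyrosine hydroxylase of catecholamine synthesis, had signals of 4034, 5338, 4641 and 7284 in Dwarf Recessive White, 294 to 626 in Shouguang and 510 to 1589 in Tibetan. The 7 neural markers summed to between 5722 and 9012 in Dwarf Recessive White, 1390 and 2484 in Shouguang and 1714 and 2952 in Tibetan. Without TH the other 6 summed to between 1343 and 1728, 885 and 1871, and 1204 and 1512, which overlap, and 1 of the 7 was under the filter limit. The 5 atrial markers summed to between 45299 and 46595 in Dwarf Recessive White, 50276 and 57846 in Shouguang and 49030 and 53508 in Tibetan. Their mean log2 signal was 10.26 to 10.71 in Dwarf Recessive White, 10.77 to 11.86 in Shouguang and 9.97 to 10.90 in Tibetan. By that mean the Dwarf Recessive White and Tibetan arrays overlapped. The part of neural, atrial or other cells in the ALDH1A1 difference was not tested.

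ALDH1A2 behaved differently. It makes most of the retinoic acid of early embryos, lies on chromosome 10, and had 2 bright probe sets. The brighter probe set read 2639 and 2558 in Tibetan hypoxia, 2708 and 2407 in Tibetan normoxia, 2018 and 1728 in Shouguang hypoxia and 2280 and 1672 in Shouguang normoxia. In Dwarf Recessive White it read 2091 and 2057 in hypoxia and 2316 and 2256 in normoxia. All 4 Tibetan arrays were above the other 8, whereas the Shouguang and Dwarf Recessive White arrays overlapped. The share of all probe sets that separate breeds in this way is not given. Where breeds do not overlap, here and below, this is therefore only a description.

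Tibetan exceeded Shouguang in ALDH1A2 by a log2 difference of 0.43 ± 0.11, a 1.35-fold difference that did not pass (limma, adjusted p = 0.0990). The other bright probe set ran from 1311 to 1731 in Tibetan, 837 to 1186 in Shouguang and 1091 to 1601 in Dwarf Recessive White. Its Tibetan minus Shouguang difference was 0.55 ± 0.12 (limma, adjusted p = 0.0559), just short of the threshold, and these arrays did not overlap either. Tibetan against Dwarf Recessive White gave 0.24 ± 0.11 and 0.18 ± 0.12 for the 2 probe sets (limma, adjusted p = 0.387 and 0.578). The third ALDH1A2 probe set stayed at 3.47 or less on all arrays and carried no usable level.

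Within each array, the log2 signal of ALDH1A1 minus that of ALDH1A2 was -2.45 (SD 0.70, n = 4) in Dwarf Recessive White, -4.53 (SD 0.59) in Shouguang and -4.90 (SD 0.25) in Tibetan. The Dwarf Recessive White arrays ran from -3.48 to -1.97, and all lay above the -3.95 that was the highest of the other breeds. These values restate the ALDH1A1 and ALDH1A2 signals given above and were not tested. They describe an unequal difference of the 2 transcripts between the breeds, not their relative amounts.

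**Figure D3:**
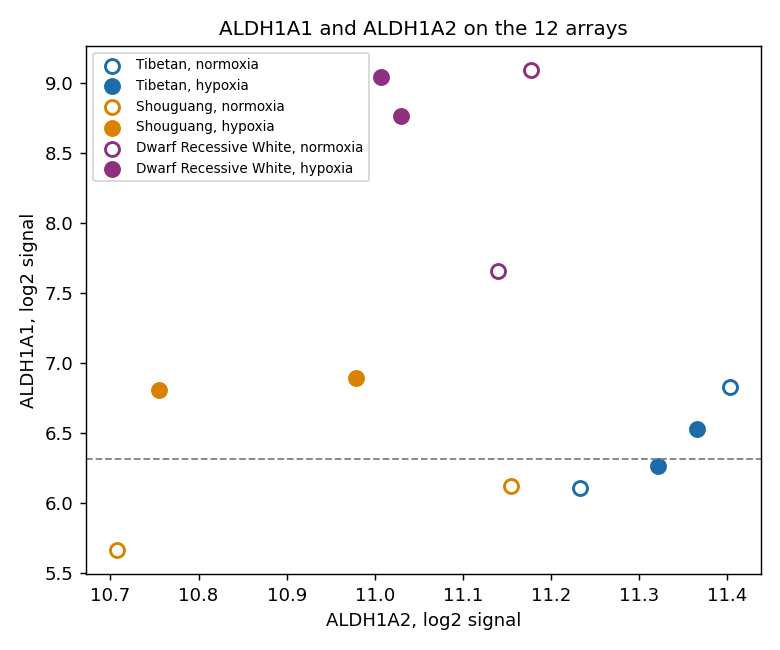
ALDH1A1 (vertical) against ALDH1A2 (horizontal), both as log2 signal, on the 12 arrays; colour marks the breed, filling the condition and the dashed line the filter limit. The Dwarf Recessive White arrays stand apart upward, and the Tibetan arrays stand to the right.

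ALDH1A3, the remaining enzyme of the family and also on chromosome 10, had signals of 800 and 1221 in Tibetan hypoxia and 966 and 1373 in Tibetan normoxia. It read 630 and 831 in Shouguang hypoxia, 883 and 952 in Shouguang normoxia, 816 and 594 in Dwarf Recessive White hypoxia and 1085 and 1019 in Dwarf Recessive White normoxia. The breeds overlapped, and the largest of its averaged differences was 0.39 ± 0.17 for Tibetan minus Shouguang (limma, adjusted p = 0.385).

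No receptor passed in a breed comparison. RARB, a retinoic acid receptor whose own gene is a known retinoic acid target, was bright with 2 probe sets, which ran from 1834 to 2990 and from 1526 to 2206 over the 12 arrays. Their averaged breed differences lay between -0.19 and 0.10 on the log2 scale. The dimmest RARB probe set read 127 to 203 in Dwarf Recessive White, 78.3 to 153 in Tibetan and 18.9 to 171 in Shouguang, with a Shouguang minus Dwarf Recessive White difference of -1.20 ± 0.55 (limma, adjusted p = 0.431). The second Shouguang hypoxia array held its highest Shouguang signal: without that array the difference was -1.99 and passed (limma, adjusted p = 0.0309). The 3 RARB probe sets did not vary together, with Pearson correlations of -0.16, 0.00 and -0.05 across the 12 arrays, which share breed and condition.

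RARA, the widely expressed retinoic acid receptor, was dim: 92.7 to 182 in Tibetan, 68.7 to 132 in Shouguang and 94.5 to 136 in Dwarf Recessive White. Its averaged differences were 0.31 ± 0.32, 0.06 ± 0.32 and -0.25 ± 0.32, and the breeds overlapped. RXRA, the main RXR of the mammalian heart, read 112 to 241 in Tibetan, 230 to 307 in Shouguang and 119 to 311 in Dwarf Recessive White with its brightest probe set. Tibetan minus Shouguang was -0.67 ± 0.32 for that probe set (limma, adjusted p = 0.434) and -0.84 ± 0.36 for the next (limma, adjusted p = 0.370). The dimmest RXRA probe set was not tested; it read 70.8 to 88.3 in Shouguang and 45.1 to 61.4 on the other 8 arrays, without overlap, and 9 of its 12 values were under the limit.

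RXRG, an RXR that is known from skeletal muscle and brain, read 30.7 to 135 in Tibetan, 55.0 to 115 in Shouguang and 55.3 to 206 in Dwarf Recessive White. Its breed differences lay between -0.66 and -0.19, each with an SE of 0.40, and the arrays overlapped. A second RXRG probe set did not exceed 69.8 and was not tested.

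The carriers and the degrading enzyme were near the floor of the arrays. CRABP1 read 156 and 52.5 in Shouguang hypoxia and 92.8 and 95.7 in Shouguang normoxia, against 5.53 to 17.3 in Dwarf Recessive White and 6.66 to 61.7 in Tibetan. Shouguang and Dwarf Recessive White arrays did not overlap. With no filter on dim probe sets Shouguang exceeded Dwarf Recessive White by 3.04 ± 0.76 (limma, adjusted p = 0.134), and by 0.37 with dim signals raised to the limit, since 9 of the 12 CRABP1 values were under it.

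CYP26A1 read 54.7 to 94.7 in Dwarf Recessive White, 7.04 to 80.0 in Shouguang and 9.01 to 140 in Tibetan, with 7 of 12 values under the limit. RBP4, on Z like ALDH1A1, was under the limit on all 12 arrays, with 4.96 to 9.40 in Dwarf Recessive White, 7.76 to 16.1 in Shouguang and 7.69 to 71.0 in Tibetan. On 1 Tibetan array of each condition it read 59.3 and 71.0, and no other array exceeded 16.1.

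**Figure D4:**
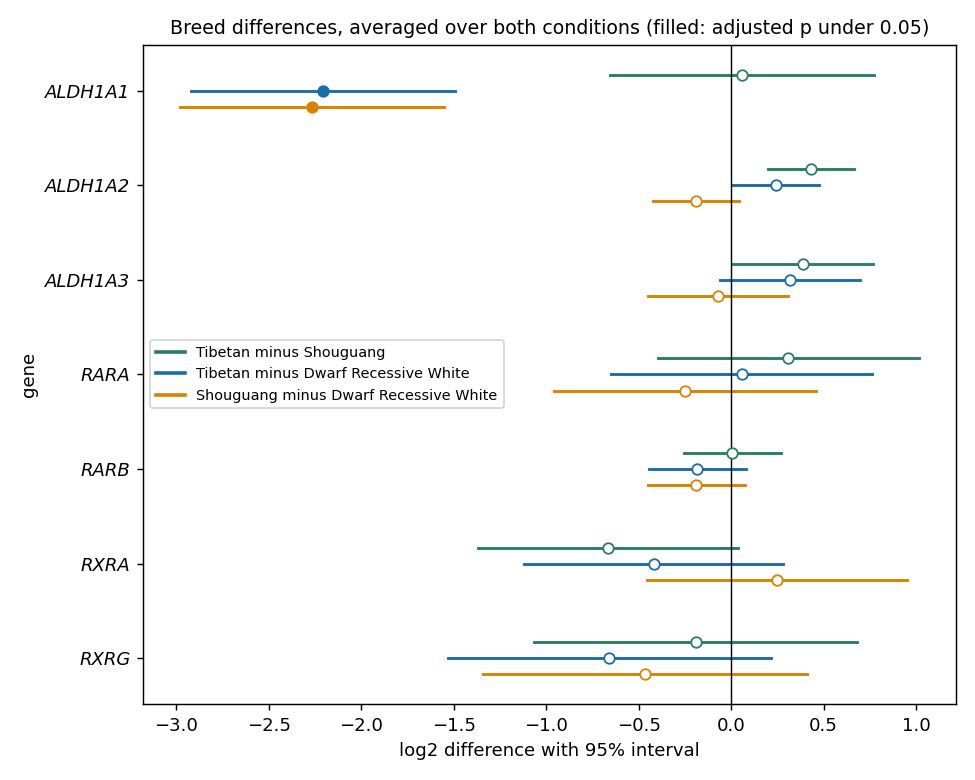
Log2 differences between breeds, averaged over hypoxia and normoxia, for the brightest probe set of the 7 tested genes (vertical axis); bars are 95% intervals of the limma fit and filled points have an adjusted p under 0.05. The 2 filled points are ALDH1A1, at -2.21 and -2.27.

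Split by condition, no member passed. In normoxia ALDH1A1 differed by -2.48 ± 0.46 between Shouguang and Dwarf Recessive White (limma, adjusted p = 0.0596) and by -1.91 ± 0.46 between Tibetan and Dwarf Recessive White (adjusted p = 0.205). In hypoxia the same differences were -2.05 ± 0.46 and -2.51 ± 0.46 (limma, adjusted p = 0.132 and 0.0803). Neither condition had overlapping arrays in these comparisons, each of 2 arrays against 2, where arrays can separate without a difference. The limma fits passed 0.0347%, 0.113% and 0.256% of all probe sets in normoxia and 0.052%, 0.13% and 0.208% in hypoxia for Tibetan against Shouguang, Tibetan against Dwarf Recessive White and Shouguang against Dwarf Recessive White. At an unadjusted p under 0.05, 2, 2 and 4 of the 11 member probe sets passed in normoxia and 2, 2 and 1 in hypoxia. Beside them, 1631, 2033 and 2239 of all 23063 passed in normoxia and 2082, 1858 and 1820 in hypoxia.

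The study's other question was how hypoxia acts in each breed, and no retinoic acid gene passed there. The limma fit passed 0% of all probe sets in Tibetan, 0% in Shouguang, 0.00434% in Dwarf Recessive White and 0.0564% for the mean over the 3 breeds. At an unadjusted p under 0.05 the member counts were 2, 1, 2 and 2 of 11, beside 1027, 1273, 1461 and 1927 of all 23063. The median SE of a change within a breed was 0.26 on the log2 scale, and 0.15 for the mean, and some members had a larger SE. With 2 arrays a group, large changes could fail to pass as well as small ones. Hypoxia and normoxia arrays of a breed, 2 against 2, can also separate without a difference. The share of all probe sets that separate in this way is not given. A lack of overlap between conditions is therefore only a description, here and below. The change of TTR, a list gene described below, was -2.47 ± 0.42 in Shouguang and did not pass (limma, adjusted p = 0.227).

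For the brightest ALDH1A2 probe set, hypoxia minus normoxia was 0.03 ± 0.15 in Tibetan, -0.06 ± 0.15 in Shouguang and -0.14 ± 0.15 in Dwarf Recessive White, and the 95% interval of the mean was -0.25 to 0.13. The other bright ALDH1A2 probe set gave 0.22, -0.25 and -0.37 (each SE 0.17), with no overlap of conditions in any breed. For that probe set the Dwarf Recessive White value (limma, unadjusted p = 0.0467, adjusted p = 0.779) and the difference of the effect between Tibetan and Dwarf Recessive White, 0.59 ± 0.23 (unadjusted p = 0.0267, adjusted p = 0.9997), did not pass. ALDH1A3 had differences below 0 in each breed, -0.22 ± 0.25, -0.34 ± 0.25 and -0.59 ± 0.25, with a mean of -0.39 ± 0.14 (limma, adjusted p = 0.458). Both hypoxia arrays were below both normoxia arrays in Shouguang and in Dwarf Recessive White, but not in Tibetan, where the value was 0.08 without the first hypoxia array and 0.03 without the second normoxia array.

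ALDH1A1 had a mean difference of 0.47 ± 0.27 between hypoxia and normoxia (limma, adjusted p = 0.685), made of -0.07, 0.95 and 0.53 (each SE 0.46) in Tibetan, Shouguang and Dwarf Recessive White. Both Shouguang hypoxia arrays, at 118 and 112, were above both normoxia arrays, at 69.8 and 50.7. In Dwarf Recessive White the value rested on the normoxia array of 202: without it the difference was -0.19, and without the other normoxia array 1.25. With the W-linked covariate the Shouguang value was 0.47 and the Dwarf Recessive White value 1.29.

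RXRG had the largest mean difference of the members. Its signals in normoxia were 135 and 125 in Tibetan, 115 and 115 in Shouguang and 206 and 155 in Dwarf Recessive White; in hypoxia they were 30.7 and 72.0, 55.0 and 87.8, and 130 and 55.3. Within each breed both hypoxia arrays were below both normoxia arrays. The mean log2 difference was -1.09 ± 0.33 (limma, unadjusted p = 0.00610, adjusted p = 0.336), from -1.47 in Tibetan, -0.72 in Shouguang and -1.08 in Dwarf Recessive White. With dim signals raised to the limit the mean was -0.66, as 4 of the 6 hypoxia values were under the limit.

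For the other receptors the mean hypoxia differences were -0.29 ± 0.26 for RARA, 0.05 ± 0.10 for the brightest RARB probe set and 0.17 ± 0.26 for the brightest RXRA probe set. The RARB mean combined 0.17 in Tibetan and 0.30 in Shouguang with -0.32 in Dwarf Recessive White (each SE 0.17), and the difference of the effect between Shouguang and Dwarf Recessive White was 0.61 ± 0.24 (limma, unadjusted p = 0.0255, adjusted p = 0.999). The next brightest RXRA probe set had values of opposite sign. It read 117 and 126 in Tibetan hypoxia against 38.8 and 28.0 in normoxia, 97.4 and 59.7 in Shouguang hypoxia against 154 and 183, and 156 and 100 in Dwarf Recessive White hypoxia against 54.7 and 88.4. Its differences were 1.88, -1.14 and 0.85 (each SE 0.51), without overlap in any breed. Of its 12 values 4 were under the limit, both Tibetan normoxia values among them, and with these raised to the limit the differences were 0.61, -0.93 and 0.58.

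The difference of the hypoxia effect between Tibetan and Shouguang for that RXRA probe set was 3.02 ± 0.73 (limma, unadjusted p = 0.00130, adjusted p = 0.9999), and 1.54 with dim signals raised to the limit. The brightest RXRA probe set gave 0.33 ± 0.65 for the same comparison. No probe set of the array, 0%, passed in Tibetan against Shouguang, 0% in Tibetan against Dwarf Recessive White and 0% in Shouguang against Dwarf Recessive White when hypoxia effects were compared between breeds by limma. At an unadjusted p under 0.05 the counts were 665, 922 and 1051 of 23063 for all and 1, 1 and 2 of 11 for the members.

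**Figure D5:**
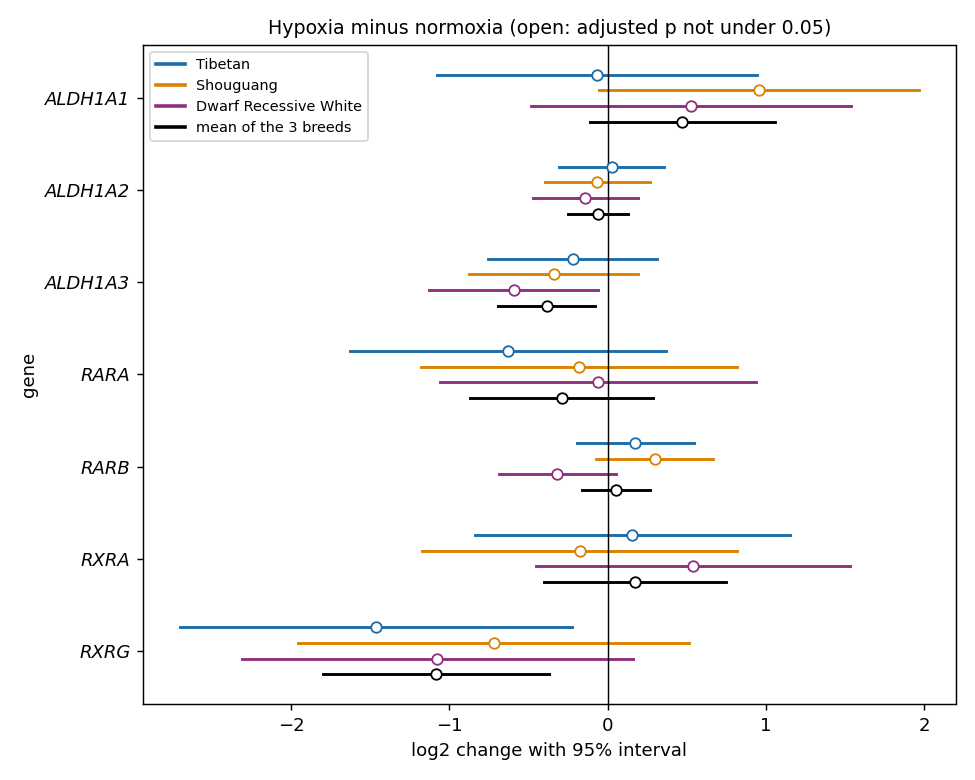
Hypoxia minus normoxia as log2 change (horizontal) for the brightest probe set of the 7 tested genes, in each breed and as the mean of the 3 breeds; bars are 95% intervals of the limma fit. All points are open, since none had an adjusted p under 0.05, and RXRG lies left of 0 in every breed.

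Genes around the members were read from lists of the wider pathway, also chosen with earlier results of these data known. Of 21 genes of retinoid synthesis and storage, 15 were on the array and 9 were tested; 2 of the 9 were higher in Tibetan than in Dwarf Recessive White and none lower, beside 103 higher and 72 lower of all 23063 (0.759%), with a list median of -0.02 beside 0.00 over all probe sets. RETSAT, retinol saturase, which makes dihydroretinol from retinol, read 5475 to 5944 in Tibetan, 4690 to 6198 in Shouguang and 3090 to 4883 in Dwarf Recessive White. It was higher in Tibetan by 0.63 ± 0.09 (limma, adjusted p = 0.00940), with no overlap, and in Shouguang by 0.59 ± 0.09 (adjusted p = 0.00773), where the arrays overlapped. With the W-linked covariate the Tibetan difference was 0.48 and did not pass (limma, adjusted p = 0.384), and with no intensity trend neither passed (adjusted p = 0.104 for Tibetan and 0.0961 for Shouguang).

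BCO1, which cleaves beta-carotene into retinaldehyde, read 148 to 198 in Tibetan, 98.3 to 157 in Shouguang and 30.8 to 76.4 in Dwarf Recessive White. It was higher in Tibetan than in Dwarf Recessive White by 1.64 ± 0.34 (limma, adjusted p = 0.0485). All 4 Dwarf Recessive White values were under the limit, so the difference was 1.17 with them raised to it. The call was lost in 17 of 24 alternative fits, among them 11 of 12 that left out 1 array, with adjusted p up to 0.181, and that with the W-linked covariate (1.97, limma, adjusted p = 0.320).

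Among 12 genes of retinoid transport, 9 were on the array and 6 were tested, and none passed between breeds; RBP7, a cellular retinol-binding protein, differed by 1.24 ± 0.30 between Shouguang and Dwarf Recessive White (limma, adjusted p = 0.0745). TTR, the blood protein that carries RBP4, read 297 to 476 in Tibetan hypoxia against 734 to 1075 in normoxia, 134 to 321 against 931 to 1406 in Shouguang and 136 to 173 against 260 to 457 in Dwarf Recessive White. Conditions did not overlap within a breed, and TTR fell by 1.62 in hypoxia over the 3 breeds (SE 0.24, limma, adjusted p = 0.0378). Its call was lost in 11 of 12 fits without 1 array, with adjusted p up to 0.151. With no intensity trend the TTR call was lost too (limma, adjusted p = 0.249), as it was with no filter on dim probe sets (adjusted p = 0.0688). TTR is also on the list of plasma proteins of liver and yolk sac, of which 15 were on the array and 9 were tested. Besides TTR only ALB, serum albumin, passed for mean hypoxia (-2.83 ± 0.41, limma, adjusted p = 0.0378), beside 0.0564% of all probe sets. The list median was -1.46, and the summed signal of its 15 genes was 5145 to 6088 in Shouguang hypoxia against 10566 to 15614 in normoxia. In Tibetan it was 5346 to 8409 against 8604 to 13210, and in Dwarf Recessive White 5573 to 6531 against 5540 to 5663. The mean log2 signal of the 15 genes, 6 of them under the limit, was 6.16 to 6.36 against 6.91 to 6.92 in Dwarf Recessive White. It was 5.78 to 6.79 against 7.87 to 8.38 in Shouguang, and 6.26 to 7.45 against 7.31 to 8.38 in Tibetan, where the arrays overlapped. The part of blood or liver RNA in the TTR change was not tested.

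Of 3 tested genes of retinoic acid breakdown, 8 nuclear receptors that partner RXR or share its sites, and 11 receptor coregulators, none passed in the averaged breed comparisons or for mean hypoxia. Of 36 genes known to respond to retinoic acid, 30 were on the array and 21 were tested, and none passed in those 4 comparisons. Their median differences were 0.17 for Tibetan minus Shouguang, 0.11 for Tibetan minus Dwarf Recessive White, -0.03 for Shouguang minus Dwarf Recessive White and 0.03 for hypoxia, beside 0.01, 0.00, -0.00 and 0.01 over all tested probe sets. None of 7 tested epicardial markers passed either.

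The tested named genes whose signal followed ALDH1A1 most closely over the 12 arrays were FAM210B, GHR, RBM33, HDHD2 and AGA, with Pearson correlations of 0.914, 0.911, 0.906, 0.900 and 0.899. GHR, the growth hormone receptor, whose mutations cause sex-linked dwarfism in chickens, lies on Z like ALDH1A1, and so does HDHD2. GHR read 4837 to 6172 in Dwarf Recessive White and 1177 to 2357 on the other 8 arrays. For ALDH1A2 the closest were CHIR-B3, PPP1R21, MINAR1, OSBPL10 and TRAPPC2L, with correlations of 0.938, 0.933, 0.890, 0.881 and 0.881. RBP4 was followed most closely by PHF20L1, at 0.871, but all RBP4 values were under the limit. All these genes were picked as the highest correlations among the tested named genes. The 12 arrays share breed and condition, so the correlations are a description. RBM33 did not pass against Dwarf Recessive White in Tibetan or Shouguang (limma, adjusted p = 0.107 and 0.0931).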

How the data were processed

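The deposited values are signal intensities, 1 per probe set and array, made by the authors with GCOS (version not given), per the submitters' processing notes. RNA was extracted with TRIzol and hybridized as biotin-labelled cRNA, per the labels' protocols. From the values, each array's trimmed mean was 500.1, so the arrays had been scaled; no detection calls were used. Control probe sets (96 of 38535) were left out, signals were taken to log2 without an offset, and probe sets with a mean at or above the 40th percentile, a log2 of 6.31, were tested: 23063. A limma 3.58.1 fit (R 4.3.3) with 1 mean per group and an intensity trend gave differences, SE and Benjamini-Hochberg adjusted p-values over all 23063, with a threshold of 0.05. The number of arrays, 2 a group with 6 residual degrees of freedom, limits the precision. The fit was tested on simulated data. Genes were named from the platform annotation: 27178 probe sets had 1 symbol, 177 several and 11180 none. Members and lists were chosen with earlier results of these data known. Genes named are the members, list genes that passed or came nearest to passing, and the 5 genes most like ALDH1A1, ALDH1A2 and RBP4. Alternatives changed the filter, scaling, variance model, offset, covariates and arrays. Chromosomes follow the RefSeq table of GRCg7b.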

Additional observations from a re-analysis of the deposited data

How the results depend on the processing

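For the averaged breed comparisons, where 2 member calls were made (ALDH1A1 against each of Tibetan and Shouguang), the count was 1 with a stricter filter (ALDH1A1 was not tested; an ALDH1A2 probe set passed in Tibetan against Shouguang, limma, adjusted p = 0.0432), 1 with no intensity trend, 1 with the W-linked covariate, 0 without genes on Z and W (which leaves ALDH1A1 out), 3 with dim signals raised to the limit (adding an ALDH1A2 probe set in Tibetan against Shouguang, adjusted p = 0.0444) and 1 to 4 when each array was left out. It was 1 without the second Dwarf Recessive White hypoxia array and 4 without the second Shouguang hypoxia array. In normoxia the count of 0 became 0 to 1 when each array was left out, with 1 without the second Dwarf Recessive White normoxia array; in hypoxia the 0 became 2 with only the arrays compared, 1 with dim signals raised to the limit (chosen after seeing the data) and 0 to 1 when each array was left out. For these counts the cause was not tested beyond what the settings themselves leave out. The number of all probe sets that pass can change with the setting too and is not given. A changed count, here and below, is therefore not a result about the members alone. No member passed for hypoxia under any of the 25 alternatives.

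With the replicate block the averaged count was 4, adding both ALDH1A2 probe sets in Tibetan against Shouguang (limma, adjusted p = 0.0222 and 0.0242), and it was 1 in normoxia and 1 in hypoxia. Same-numbered arrays deviated together weakly: all 15 pairs of groups had a positive correlation (range 0.059 to 0.199), and 7 were over 0.1. The main fit did not take the numbers as pairs, and what same-numbered arrays share was not tested. Median centring moved the median of all probe sets by -0.11 for Tibetan minus Shouguang in hypoxia. No called difference of a single gene changed direction.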

Other observations

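The members did not vary as a block across the 12 arrays. Among the 21 pairs of the 7 tested genes, each read by its brightest probe set, the Pearson correlations of log2 signal ran from -0.61 (ALDH1A3 with RXRA) to 0.55 (ALDH1A3 with RXRG), with a median of 0.19, and 11 of the 21 were above 0. The arrays share breed and condition, so these values are a description. ALDH1A1 and ALDH1A2 had a correlation of -0.01.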
